A study of Callithrix jacchus with 5 samples.

Results

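The level of the genes on chromosome 22 was examined in cultured cells of Callithrix jacchus, the common marmoset, a monkey of South America. Members were the gene identifiers whose first listed chromosome was 22 and whose mean CPM (a gene's counts scaled to the same total in every library) over the 5 libraries was at least 10. Symbols starting with ZNF or SLC, which are large zinc finger and solute carrier families, were left out. Of the 30811 identifiers counted, 1487 lay on chromosome 22, 622 of them reached 10 CPM, 48 of those belonged to the excluded families, and 574 members remained. A gene symbol was available for 432 members, and the other 142 are known here by identifier only. Members were thus chosen by their mean level over all 5 libraries, so the levels themselves are a description. Just inside the threshold lay ENSCJAG00000005893 at 10.06 CPM and UNC13A at 10.07 CPM, and just outside it lay PIH1D1 at 9.61 CPM and MYBPC2 at 9.88 CPM.

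The study asked how iPS cells (induced pluripotent stem cells, made by returning body cells to an embryo-like state) obtained from marmoset fibroblasts with RNA compare with embryonic stem (ES) cells. Its RNA sequencing covered 1 library of fibroblasts (E01F, P1 in the title), 3 libraries of ES cells, each from a separately named line (No40 with P63, DSY127 with P17 and No20 with P45), and 1 library of iPS cells. What the P numbers stand for, the sex and age of the source animals, the culture conditions and the parent cells of the iPS library were not given in the sources used here. No genetic change or drug treatment is stated for any group. Each ES line is 1 library, so p-values measure the spread between lines, and the lone fibroblast and iPS libraries were assumed to vary like an ES line.

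Many marmoset chromosome 22 genes have human counterparts that lie together on a small, gene-dense human chromosome, including TGFB1, DNMT1, TRIM28 and the NLRP genes. Its genes encode parts of the ribosome, the splicing machinery, mitochondria, cell junctions and the DNA methylation machinery, most of which every growing cell uses. It also carries NLRP7, NLRP9 and other genes of the oocyte and early embryo, and PEG3, an imprinted zinc finger gene of which only the paternal copy is active in most tissues studied.

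Total counts ran from 34111715 to 58601185 in the fibroblast and ES libraries and came to 5746449 in the iPS library, where 3 counts equal 0.507 CPM. The members took 4.81% of all counts in the fibroblast library, 6.44% in No40, 7.12% in DSY127, 5.79% in No20 and 5.59% in the iPS library. Summed over the 6 measured pluripotency markers (POU5F1, NANOG, SOX2, LIN28A, SALL4 and DNMT3B), the level was 25.9 CPM in fibroblasts, between 2911 and 5805 CPM across ES lines and 4339 CPM in iPS cells. The 7 measured fibroblast and mesenchymal markers summed to 78812 CPM in fibroblasts, 1412 to 2542 CPM across ES lines and 10757 CPM for iPS cells, and no marker of either list was at 0 in any library. The labelled cell types therefore carried their markers, with the mesenchymal sum of the iPS library above every ES line.

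Chromosome 22 stood out by its gene density. The first member began at position 11053 and the last ended at 49080992, in the coordinates of the files, on a genome build not given in the sources used here. That gave 11.7 members per Mb, against 5.76 genes per Mb under the same level and name rules on chromosome 18, the next densest. Members were short, with a median exonic length of 1955 bases and a median genomic span of 15091.5 bases, against 2563 and 32889 bases for the 9084 genes of other chromosomes under the same rules. The plus strand held 304 members and the minus strand 270. The span of 289 members overlapped another gene of the table, 191 of them a gene on the opposite strand. With the strand setting of the counting also not stated, those members may share reads with a neighbour.

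Most members were active in every library: 421 of 574 reached 10 CPM in all 5, 62 fell short of it only in fibroblasts and 7 reached it only in fibroblasts. The 62 and the 7 cannot be weighed against each other. With a lone fibroblast library in the mean of 5, the rule admits genes low only in fibroblasts more readily than genes high only there. The median member level was 43.1 CPM in fibroblasts, 43.9 CPM in No40, 45.9 CPM in DSY127, 36.1 CPM in No20 and 38.8 CPM in iPS cells (these and all later CPM values are scaled with TMM factors, which set libraries to a common composition). Per kilobase of exon, the scale on which different genes can be set side by side, the member medians were 23.4 CPM per kb in fibroblasts, 21.3 in No40, 23.2 in DSY127, 18.3 in No20 and 19.3 in iPS cells. Genes of the other chromosomes stood at 19.8, 16.9, 16.4, 16.6 and 16.1 CPM per kb in the same order. Members were above the rest on this scale in all 5 libraries, but they are also shorter, and length is its divisor. Without that division, the other chromosomes had medians of 49.0, 41.5, 40.0, 41.2 and 39.9 CPM, so that members were above them in No40 and DSY127 and below them in fibroblasts, No20 and iPS cells. No20 had the lowest member median on both scales.

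The members with a symbol and the highest mean CPM included genes of protein synthesis and iron storage, given here per kilobase of exon. RPL13A, a protein of the large ribosomal subunit, stood at 2042 CPM per kb in fibroblasts, 2161, 2341 and 1756 CPM per kb in No40, DSY127 and No20, and 2090 CPM per kb in iPS cells. FTL, the light chain of ferritin, which stores iron, stood at 3041 CPM per kb in fibroblasts, 1247, 1664 and 2018 CPM per kb in the same ES lines, and 852 CPM per kb in iPS cells. EEF2, the elongation factor that moves the ribosome along the messenger RNA, stood at 1601 CPM per kb in fibroblasts, 1729, 1283 and 996 CPM per kb in the ES lines, and 907 CPM per kb in iPS cells. The fibroblast value lay within the ES range for RPL13A and EEF2 and above it for FTL, and none of these genes passed the test in any comparison. CALR, an endoplasmic reticulum chaperone that binds calcium, ranged from 964 to 1428 CPM per kb over the 5 libraries, and the splicing factor HNRNPM from 206 to 403 CPM per kb. The 10 members with a symbol and the highest mean CPM held 22.5% to 26.3% of all member CPM in each library.

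Along the chromosome the level showed no steady trend. In windows of 5 Mb the median ran from 12.8 to 35.3 CPM per kb in fibroblasts, from 16.1 to 29.4 in No40, from 15.4 to 29.6 in DSY127, from 14.2 to 23.2 in No20 and from 13.7 to 31.0 in iPS cells. Spearman's rank correlation between start position and CPM per kb over the 574 members lay between -0.09 and -0.03 in the 5 libraries. The window from 20 to 25 Mb held only 9 members, while the other windows held 41 to 79. TPGS1, a subunit of the tubulin polyglutamylase complex, was the first member with a symbol, and UBE2M, an enzyme that attaches NEDD8 to proteins, was the last.

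**Figure D1:**
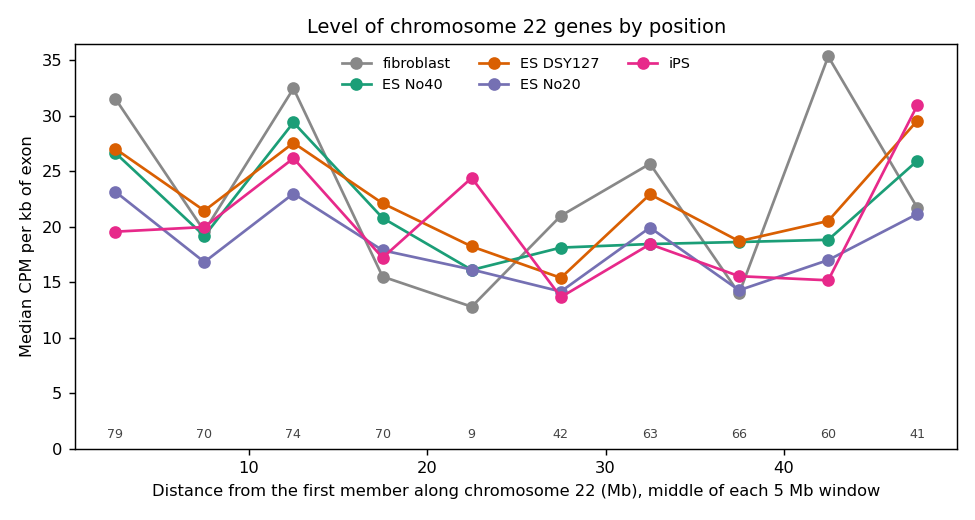
Median CPM per kb of exon (vertical axis) of the chromosome 22 members in each 5 Mb window, by distance from the first member in Mb (horizontal axis), 1 line per library. Small numbers along the bottom give the number of members per window. No20 runs below DSY127 in all 10 windows, and the fibroblast line swings the most, between 12.8 and 35.3 CPM per kb.

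Relations of level to gene length depended on the scale. Members were split by exonic length into quartiles of 117 to 1278, 1280 to 1948, 1962 to 2898 and 2913 to 16318 bases. Median CPM per kb fell from the shortest to the longest quartile in every library, from 45.7 to 12.2 in fibroblasts, from 42.9 to 15.7 in No40, from 55.8 to 12.9 in DSY127, from 44.3 to 9.82 in No20 and from 43.9 to 11.6 in iPS cells. Spearman's rank correlation between exonic length and CPM per kb, with n = 574 genes that share libraries, was -0.35 in No40 and -0.47 in No20, with the other libraries between them. Length is the divisor of this scale, so part of that relation is built in. For undivided CPM the same correlation was 0.04 in fibroblasts, 0.22 in No40, 0.08 in DSY127, 0.02 in No20 and 0.07 in iPS cells. The median CPM of the shortest and longest quartiles was 40.3 and 55.7 in fibroblasts, 34.1 and 66.6 in No40, 46.1 and 67.2 in DSY127, 39.2 and 46.5 in No20, and 36.6 and 52.9 in iPS cells, so the longest members had the more counts in every library. ZIK1, the longest model at 16318 bases, stood at 5.9 to 10.7 CPM per kb over the 5 libraries.

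The ES lines were not at the same level over this chromosome. No20 was compared with the mean of No40 and DSY127, gene by gene, as a difference in log2 CPM with a prior count of 2. The median difference of the members was -0.25, with quartiles of -0.56 and 0.07, and 408 members were lower and 166 higher in No20. The same median was 0.03 over genes of the other chromosomes and -0.02 over all 17462 genes tested. Chromosome 22 had the lowest median of all 24 chromosomes in this line. The next lowest was chromosome 20 at -0.13, and the highest were chromosome 15 at 0.37 and chromosome 9 at 0.36. A median difference of -0.25 is a level 1.19 times lower.

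DSY127 lay on the other side of 0. Against the mean of No40 and No20, the median member difference was 0.23, with quartiles of -0.05 and 0.44, and 408 members were higher and 166 lower. The other chromosomes had a median of -0.03 and all genes tested a median of 0.01. Chromosome 22 had the highest median of the 24 chromosomes in DSY127, followed by chromosome 11 at 0.10, while chromosome 15 was lowest at -0.21. No40 against the other ES lines gave a member median of 0.05, beside 0.01 on the other chromosomes. These 3 comparisons use the same libraries, so a high DSY127 lowers the difference of No20 and the reverse.

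**Figure D2:**
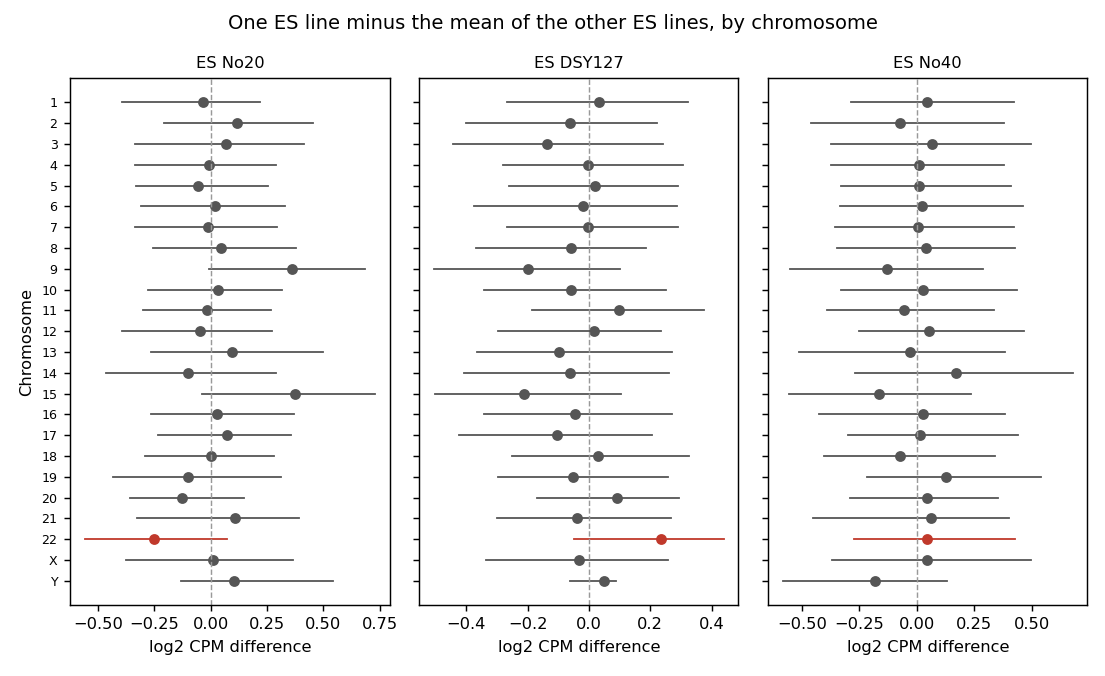
Median difference in log2 CPM between 1 ES line and the mean of the other ES lines (horizontal axis) for each chromosome (vertical axis), under the same level and name rules. Points are medians over genes, bars run between the quartiles over genes, and red marks chromosome 22. Chromosome 22 is leftmost in No20 at -0.25 and rightmost in DSY127 at 0.23. The Y chromosome has only 10 genes.

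Taken in pairs, the lines separated most between No20 and DSY127. No20 was lower than DSY127 in 433 of 574 members, with a median difference of -0.28 beside 0.05 on the other chromosomes. No20 minus No40 gave -0.20 beside 0.01, and DSY127 minus No40 gave 0.10 beside 0.00. No20 was the lowest of the ES lines in 313 members (54.5%), against 35.4% of all genes tested and 30.8% of genes on other chromosomes. DSY127 was the highest in 279 members (48.6%), against 30.9% and 27.6%. The order DSY127 above No40 above No20 held in 159 members (27.7%), against 16.1% and 12.9%. With the libraries scaled again without DSY127, the No20 median was -0.11, and without No20 the DSY127 median was 0.13. Each value was smaller in size without the line on the other side. The same pairs on the common scaling gave -0.20 and 0.10, so the new scaling also enters these values. The medians of other chromosomes under the new scaling are not given here. With 1 library per line, the line cannot be told apart from its culture or its library.

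The shift ran along the whole chromosome. All 10 windows of 5 Mb had a negative median in No20, from -0.36 in the window from 40 to 45 Mb to -0.13 in the sparse window from 20 to 25 Mb. All 10 had a positive median in DSY127, from 0.05 between 25 and 30 Mb to 0.33 between 35 and 40 Mb. Spearman's rank correlation between start position and the difference was -0.05 for No20 and 0.01 for DSY127 over 574 members. It also held at every level: in members with a mean of 10 to 20, 20 to 50, 50 to 200 and at least 200 CPM, the No20 median was -0.28, -0.28, -0.24 and -0.16, and the DSY127 median was 0.08, 0.25, 0.26 and 0.28.

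**Figure D3:**
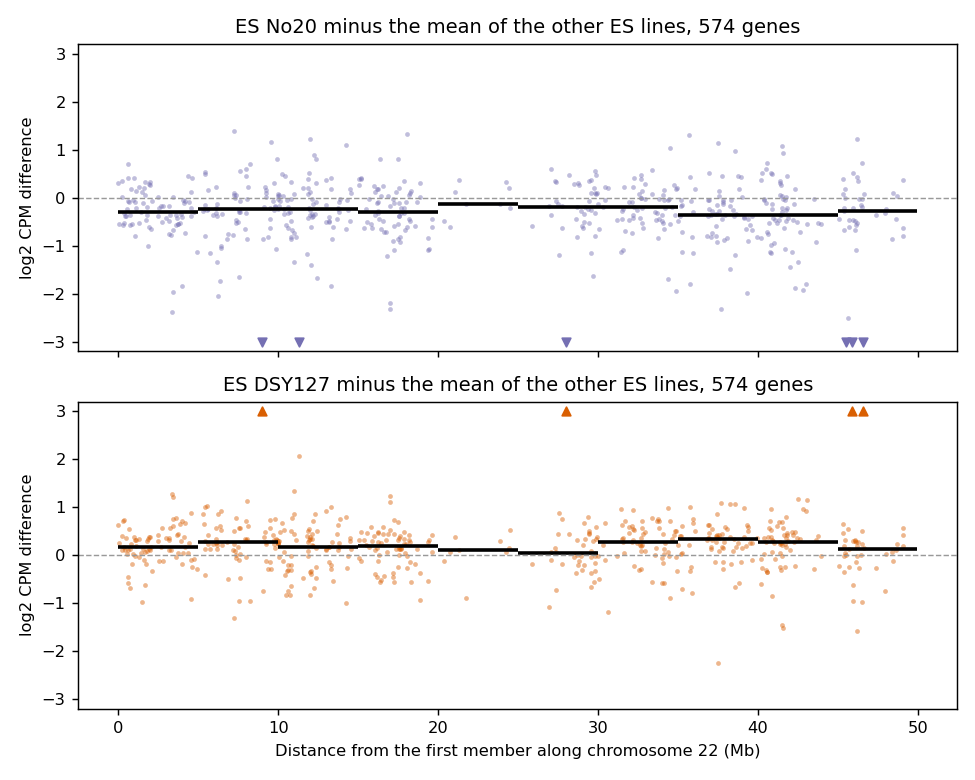
Difference in log2 CPM of No20 (upper panel) and DSY127 (lower panel) from the mean of the other ES lines (vertical axes) against distance from the first member in Mb (horizontal axis). Dots are the 574 members, triangles at the edge are members beyond 3 in size, and black bars are window medians. The bars lie below 0 in every window for No20 and above 0 in every window for DSY127.

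Exonic length entered the size of these differences, on this chromosome and on the others. In No20 the member median was 0.03 in the shortest quartile and -0.25, -0.32 and -0.46 in the next ones. Genes of other chromosomes in the same length classes gave 0.27, 0.09, -0.01 and -0.06, so that members lay lower by 0.23, 0.33, 0.31 and 0.39 at matched length. In DSY127 the members gave 0.27, 0.30, 0.25 and 0.10, and the other chromosomes 0.10, 0.07, 0.00 and -0.16, so that members lay higher by 0.17, 0.23, 0.25 and 0.25. In No40 the median climbed with length, from -0.23 to 0.38 in members and from -0.36 to 0.21 elsewhere. The sign of the shift in No20 thus depended on length in the shortest class, while the distance from other chromosomes kept its sign in all 4 classes for all 3 lines.

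**Figure D4:**
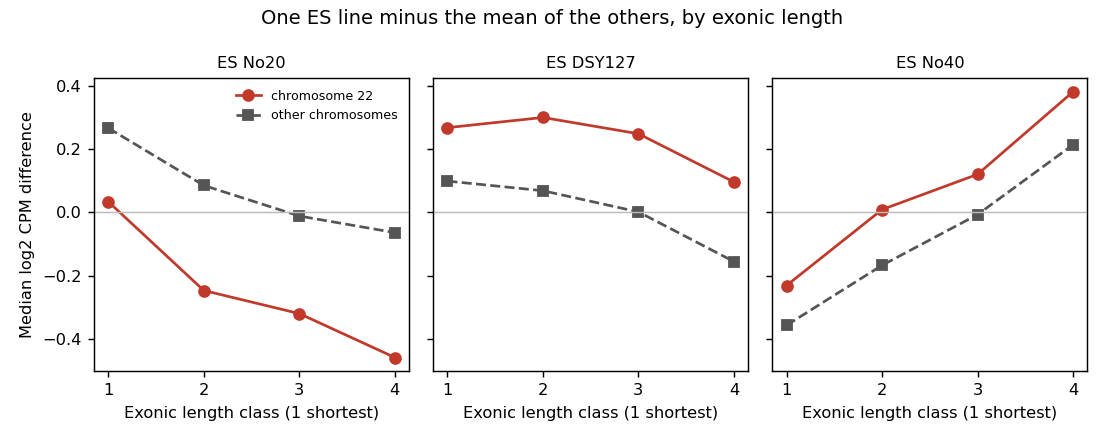
Median difference in log2 CPM of 1 ES line from the mean of the others (vertical axis) by exonic length class, 1 for the shortest and 4 for the longest (horizontal axis). Red circles are chromosome 22 members and grey squares are genes of the other chromosomes in the same length classes. In No20 the red line lies 0.23 to 0.39 below the grey line, and in DSY127 it lies 0.17 to 0.25 above.

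Few members passed a test for a single gene in these lines, where 1 line was set against the other ES lines with 1 residual degree of freedom. In edgeR's quasi-likelihood test with Benjamini-Hochberg adjustment, 4 members passed in No20, all lower, beside 0.441% of all genes tested in either direction. Lower calls alone made up 0.697% of members, 0.349% of all genes tested and 0.407% of genes on other chromosomes. At an unadjusted p under 0.05, 43 members were lower and 4 higher, beside 5.82% and 3.31% of all genes tested. No member passed in DSY127 (background 0.0401%), where 3 were higher and 2 lower at an unadjusted p under 0.05 (backgrounds 1.90% and 1.06%) and where DESeq2 and limma voom also called none. Without a low-count filter 3 members were called in DSY127, all higher, and 11 in No20, all lower. The share of all genes called without the filter is not given here, so these counts cannot be weighed. A 2-fold or larger difference was found in 55 members lower in No20 (9.58%), beside 12.7% of all genes tested and 5.50% of genes on other chromosomes, and in 10 members higher (1.74%, beside 8.68% and 5.02%).

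The 4 members called lower in No20 read between 0.137 and 6.77 CPM there and at least 34.0 CPM in the other pluripotent libraries. CHST8, a sulfotransferase that modifies sugar chains of glycoprotein hormones (28011933 to 28157314, plus strand), stood at 34.0 CPM in No40, 80.6 in DSY127, 0.755 in No20, 59.0 in iPS cells and 4.96 in fibroblasts. Its log2 fold change in No20 was -6.24 ± 0.82 (SE) with an adjusted p of 0.0101 in edgeR's test. NLRP7, a gene of the oocyte and early embryo linked to maternal imprinting (45889862 to 45913402, minus strand), stood at 215 CPM in No40, 769 in DSY127, 6.77 in No20, 730 in iPS cells and 0.168 in fibroblasts. It gave -6.18 ± 0.85 with an adjusted p of 0.0119 in edgeR's test, and it overlaps a gene on the opposite strand. In both genes No20 lay far below the other ES lines and the iPS library.

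The other members that passed have no symbol. ENSCJAG00000006154 (8986780 to 9016743, minus strand) stood at 43.5 CPM in No40, 72.1 in DSY127, 0.137 in No20, 87.7 in iPS cells and 1.32 in fibroblasts, and fell by 8.68 ± 0.86 on the log2 scale in No20 (edgeR, adjusted p of 0.00161). ENSCJAG00000005453 (11288038 to 11298375, plus strand) stood at 150.0 CPM in No40, 130.4 in DSY127, 6.38 in No20, 185 in iPS cells and 1.24 in fibroblasts, and fell by 4.46 ± 0.56 (edgeR, adjusted p of 0.00738). In both, No20 and the fibroblasts lay far below the other libraries. With limma voom the adjusted p was 0.0624 for CHST8, 0.0533 for NLRP7 and 0.0533 for ENSCJAG00000006154, so that only ENSCJAG00000005453 was called.

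NLRP9, a relative of NLRP7 (46612233 to 46645903, plus strand), differed as widely between lines without passing. It stood at 17.5 CPM in No40, 318 in DSY127, 0.732 in No20 and 458 in iPS cells, with no count in fibroblasts. The adjusted p in edgeR's test was 0.0687 for No20, and 0.0385 with RLE size factors. Genes of the NLRP family resemble each other, and their shares of reads are uncertain to that extent. TTYH1, a membrane protein of neural and embryonic cells, read 25.1, 13.1 and 3.16 CPM in No40, DSY127 and No20, and TJP3, a scaffold protein of tight junctions, read 31.8, 34.6 and 6.36 CPM. Neither passed in No20, with adjusted p of 0.190 and 0.155 in edgeR's test.

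On the higher side in No20, no member passed. DNMT1, the enzyme that copies DNA methylation after replication, read 28.7 CPM in No40, 37.4 in DSY127 and 73.0 in No20, and TGFB1I1, a focal adhesion adaptor, read 19.3, 27.9 and 57.9 CPM. SYDE1, a GTPase-activating protein, read 8.74, 5.79 and 15.4 CPM in the same order. Their adjusted p in No20 was 0.404, 0.344 and 0.563 in edgeR's test. Marker sums differed between the lines beside these values: the 6 pluripotency markers summed to 2911 CPM in No20 against 4923 in DSY127 and 5805 in No40, and the 7 mesenchymal markers to 2542 against 1412 and 2315 CPM. The part of the markers in the shift of the members was not tested.

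In DSY127 the largest differences among members with a symbol were those of NLRP9, NLRP7 and CHST8 on the higher side. These genes also had the largest falls in No20. Because No20 is part of the mean that DSY127 is set against, the overlap is no separate result. ACP5, an acid phosphatase, read 44.9 CPM in DSY127 against 24.2 in No40 and 12.97 in No20, and ETFB, a subunit of the mitochondrial electron transfer flavoprotein, read 76.0 against 33.9 and 34.8 CPM. On the lower side, FOSB, an immediate early transcription factor, read 1.36 CPM in DSY127 against 6.58 and 6.72. FOSB was under the 10 CPM of the membership rule in each ES line and met it through other libraries. DPY19L3, an enzyme that attaches mannose to tryptophan, read 29.3 against 85.9 and 44.4 CPM. Every one of these had an adjusted p above the threshold in DSY127. DSY127 lay outside the range of the other ES lines in all of them, which their choice by largest difference favours.

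The line differences were also counted in lists of genes by function, beside 71.1% of all members and 50.4% of all genes tested that were higher in DSY127. Of 11 respiratory chain and mitochondrial members, all 11 were higher in DSY127 and none was called, with a median difference of 0.56 and a range from 0.29 to 1.14. TOMM40, the channel of the outer mitochondrial membrane, read 101.1, 152 and 120 CPM in No40, DSY127 and No20, and UQCRFS1, the Rieske protein of complex III, read 77.4, 95.2 and 78.7 CPM. In RNA polymerase and splicing 21 of 24 members were higher in DSY127 (median 0.36), in ribosome and translation 15 of 17 (0.26), in proteasome, ubiquitin and chaperones 11 of 12 (0.32), in DNA replication, repair and cell cycle 14 of 17 (0.38) and in signalling 14 of 18 (0.27), again with none called. Glycolysis and other metabolism had 8 of 10 higher (0.26) and cytoskeleton, adhesion and matrix 13 of 18 (0.29). Vesicle traffic and ER had 9 of 13 (0.34) and chromatin and DNA methylation 13 of 21 (0.27). Lipid and sterol had 5 of 9 (0.08) and the list with NLRP and imprinted genes 4 of 7 (0.04). None of these members was called. The median over all genes tested was 0.01 in that comparison. No40, part of the mean there, was itself low in some lists. All 11 mitochondrial members were lower in No40 than the mean of the other ES lines (median -0.42). So were 14 of 17 ribosome and translation members (-0.30) and 10 of 12 of proteasome, ubiquitin and chaperones (-0.29). The remaining lists had No40 medians from -0.09 to 0.24. Of all members 45.5% were lower in No40, and of all genes tested 48.0%. No list was matched for exonic length, here or for No20 below. Members of the shortest length quartile had medians of 0.27 in DSY127, -0.23 in No40 and 0.03 in No20. The part of length in the list values was not tested.

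In No20 the lists divided, beside 71.1% of all members and 51.7% of all genes tested that were lower. All 9 lipid and sterol members were lower, with a median of -0.46. The list with NLRP and imprinted genes had all 7 members lower, with a median of -0.36 and a highest value of -2.77e-05. Beside NLRP7, NLRP9 and PEG3 it holds LENG8, CNOT3, TSEN34 and MBOAT7, the last of which is also a lipid list member. Only NLRP7 was called. Among lipid genes, MBOAT7, which places arachidonic acid on phosphatidylinositol, read 168, 149 and 135 CPM in No40, DSY127 and No20, and PLIN3, a coat protein of lipid droplets, read 107.5, 202 and 113 CPM. In signalling 16 of 18 members were lower in No20 (median -0.34), in cytoskeleton, adhesion and matrix 13 of 18 (-0.35), and in chromatin and DNA methylation 15 of 21 (-0.25), with none called. Ribosome and translation had 9 members higher and 8 lower (median 0.04), and proteasome, ubiquitin and chaperones 6 and 6 (0.03), beside a median of -0.02 over all genes tested. Vesicle traffic and ER (-0.23), DNA replication, repair and cell cycle (-0.19), glycolysis and other metabolism (-0.16), respiratory chain (-0.13) and RNA polymerase and splicing (-0.08) lay between, with none called.

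Members were called between fibroblasts and the ES lines about as often as all genes tested. The median member difference was -0.08, beside 0.09 on other chromosomes and -0.09 over all genes tested. Of the 24 chromosomes only chromosome 16 had a lower median, at -0.078 against -0.075. At matched exonic length, members lay 0.20 above the other chromosomes in the shortest class. They lay 0.02, 0.19 and 0.42 below them in the next ones. Called members numbered 109 of 574 (18.99%), against 18.1% of all genes tested. Of these, 42 were higher (7.32%, against 8.80% of all genes tested and 11.3% on other chromosomes) and 67 lower (11.7%, against 9.28% and 8.69%) in fibroblasts. The split depended on scaling, with 30 higher and 79 lower by total counts alone, where the median of all genes tested moved to -0.46, and with 44 higher and 49 lower in limma voom. Without No40, which leaves 1 degree of freedom, 66 members were called. Fewer cells of a type and less RNA per cell cannot be told apart in such libraries.

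The largest called increases in fibroblasts among members with a symbol were those of CNN1, TGFB1, EMP3, CLEC11A and EHD2. CNN1, the actin-binding protein calponin (10981440 to 10992575), read 265 CPM in fibroblasts, 12.6, 19.8 and 9.40 in No40, DSY127 and No20, and 7.78 in iPS cells. The fibroblast library lay far above all others, with a log2 fold change of 4.25 ± 0.44 and an adjusted p of 0.00277 in edgeR's test. TGFB1, the growth factor that drives matrix production, read 209 CPM in fibroblasts, 10.5, 7.31 and 18.0 in the ES lines and 6.09 in iPS cells, and rose by 4.13 ± 0.49 (edgeR, adjusted p of 0.0039). EMP3, a membrane protein, CLEC11A, a secreted growth factor for blood and bone cells, and EHD2, which stabilises caveolae, rose by 4.11 ± 0.37, 4.08 ± 0.65 and 3.61 ± 0.42, with adjusted p of 0.00896 or less in edgeR's test. AXL, a receptor tyrosine kinase, read 505 CPM in fibroblasts against 85.7 to 90.8 in the ES lines and 55.4 in iPS cells, and rose by 2.52 ± 0.29. In none of these genes did the fibroblast value overlap an ES line, and all but AXL were chosen by the size of their increase.

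The largest called falls among members with a symbol were those of HPN, SPINT2, PLPPR3, UNC13A and LSR. They were larger in size than the increases, but the membership rule enters into that. It admits genes almost absent from the lone fibroblast library more readily than genes almost absent from the pluripotent libraries. HPN, SPINT2, PLPPR3, UNC13A and LSR, with ENSCJAG00000013647 and AP1M2 below, met the rule through their pluripotent levels. Each of them read 0.588 CPM or less in fibroblasts. SPINT2, an inhibitor of cell surface serine proteases (31532762 to 31574657), read 0.168 CPM in fibroblasts, 177, 253 and 154 in the ES lines and 153 in iPS cells. It fell by 10.15 ± 0.73 on the log2 scale (edgeR, adjusted p of 0.00143). HPN, the membrane protease hepsin, had no count in fibroblasts and read 29.1, 16.6 and 14.5 CPM in the ES lines, which makes it at least 318-fold lower against a floor of 3 counts in the fibroblast library. ENSCJAG00000013647, which has no symbol, also had no count there and read 16.7, 36.9 and 61.8 CPM in the ES lines, at least 610-fold lower in fibroblasts on the same floor, and it passed as well (edgeR, adjusted p of 0.00469). LSR, a protein of the corners where epithelial cells meet, read 0.588 CPM against 131 to 208 in the ES lines and fell by 8.05 ± 0.67. AP1M2, a clathrin adaptor subunit of epithelial cells, read 0.273 CPM against 48.8 to 62.0 and fell by 7.63 ± 0.62. PLPPR3, a membrane protein of growing neurons, and UNC13A, which primes synaptic vesicles, were each at 0.042 CPM in fibroblasts against 15.0 to 18.5 and 8.67 to 20.6 CPM in the ES lines. The 6 genes with a symbol passed, with adjusted p of 0.00677 or less in edgeR's test. TGFB1, SPINT2 and UNC13A overlap a gene on the opposite strand and may share reads with it. Epithelial markers CDH1 and EPCAM summed to 0.882 CPM in fibroblasts and 736 to 1417 CPM in the ES lines, and neither was at 0.

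The cytoskeleton, adhesion and matrix list thus split, with 6 of 18 members called higher and 5 lower in fibroblasts and a median of 0.79. Of all genes tested, 8.80% were called higher and 9.28% lower. The higher members were CNN1, EMP3, FXYD5, TPM4, CAPNS1 and ARHGAP35, the lower ones LSR, MYH14, KLC3, NECTIN2 and BCAM. MYH14, a non-muscle myosin, read 1.70 CPM in fibroblasts and 51.2 to 186 CPM in the ES lines, while TPM4, a tropomyosin, read 305 CPM against 115 to 145. The calls of TPM4 and CAPNS1 were lost with upper-quartile or total count scaling and without No40 or DSY127, and that of BCAM in limma voom and without either line. In signalling 4 of 18 were higher (TGFB1, AXL, TYK2 and ETHE1) and 1 lower, beside those 8.80% and 9.28% of all genes tested. The lower one was DLL3, a Notch ligand, at 0.966 CPM against 20.8 to 34.0. ETHE1 is counted in the list as drawn up, though it is a metabolic enzyme. ETHE1, a mitochondrial sulfur dioxygenase, was not called by total counts alone, or without No40 or DSY127.

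Chromatin genes moved in both directions. DNMT1 read 280 CPM in fibroblasts, 28.7, 37.4 and 73.0 in No40, DSY127 and No20, and 10.99 in iPS cells, and was higher in fibroblasts by 2.59 ± 0.50 (edgeR, adjusted p of 0.0171, and 0.0554 without No40). SIRT2, an NAD-dependent deacetylase, read 100.3 CPM in fibroblasts against 12.1 to 18.0 in the ES lines and 5.75 in iPS cells, and rose by 2.67 ± 0.39. CIC, a transcriptional repressor downstream of growth factor signalling, rose by 1.95 ± 0.40. TRIM28, the corepressor recruited by zinc finger proteins to silence transposable elements, read 513 CPM in fibroblasts, 1804, 2130 and 1133 in the ES lines and 1331 in iPS cells. It was lower by 1.72 ± 0.47 with an adjusted p of 0.0473 in edgeR's test, and of 0.100 without No40 and 0.114 without DSY127. In all, 3 of 21 chromatin members were called higher and 1 lower, with a list median of -0.29. Of all genes tested, 8.80% were called higher and 9.28% lower, or 18.1% in either direction.

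Among the remaining lists, PEG3 read 89.1 CPM in fibroblasts, 966, 641 and 615 in the ES lines and 977 in iPS cells, and was lower in fibroblasts by 3.06 ± 0.47 (edgeR, adjusted p of 0.00813). It was the 1 called gene of 7 in its list, beside 18.1% of all genes tested that were called. Others lower in fibroblasts were ISYNA1, which makes inositol, at 27.8 CPM against 290 to 430, CCNE1, a cyclin of the start of DNA replication, at 24.9 CPM against 91.1 to 117, and CERS4, a ceramide synthase, at 4.89 CPM against 17.2 to 27.1. The call of CERS4 was lost without No40 or DSY127. No member of ribosome and translation (17 members, median -0.12), RNA polymerase and splicing (24, median 0.02), respiratory chain and mitochondria (11, median -0.26) or proteasome, ubiquitin and chaperones (12, median 0.27) was called in fibroblasts in either direction, beside 18.1% of all genes tested. Vesicle traffic and ER had 1 called member of 13, AP1M2, with a list median of 0.46, while 9 of the 13 were higher.

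**Figure D5:**
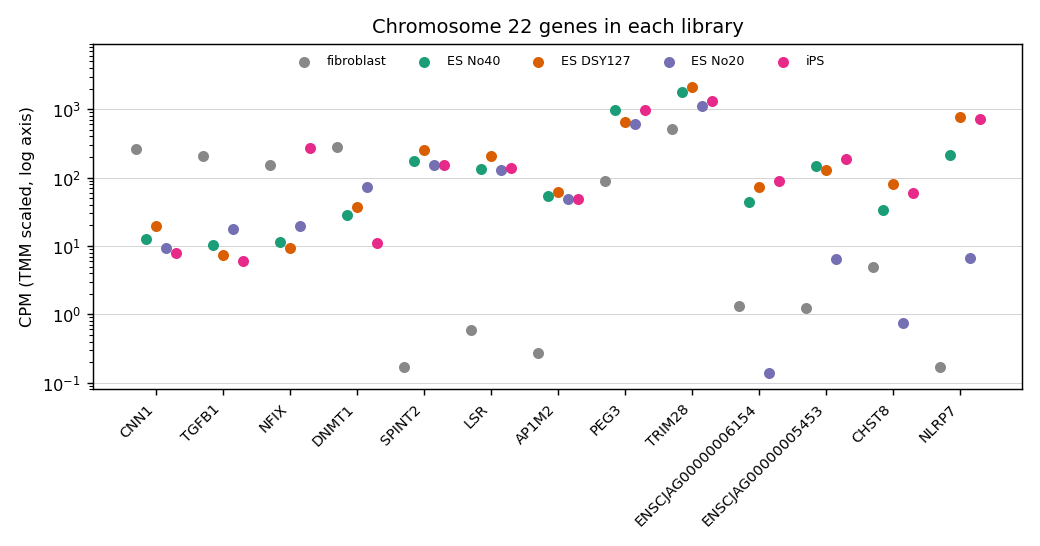
CPM with TMM scaling on a log axis (vertical) for 13 members (horizontal) in each of the 5 libraries, 1 point per library. CNN1, TGFB1 and DNMT1 are highest in fibroblasts, SPINT2, LSR and AP1M2 are under 1 CPM only there, NFIX is high in fibroblasts and iPS cells, and the last 4 genes drop in No20, to between 0.137 and 6.77 CPM.

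By the median of its members, the iPS library lay below No40 and DSY127 on this chromosome and near the level of No20. Its median member difference from the ES mean was -0.19, beside -0.09 on other chromosomes and -0.05 over all genes tested, with 379 members lower and 195 higher. By line, the median was 0.02 against No20, -0.23 against No40 and -0.34 against DSY127, while the other chromosomes gave -0.09, -0.12 and -0.07. Beside the other chromosomes, members thus lay higher against No20 and lower against No40 and DSY127. The quartiles against No20 were -0.37 and 0.40, so single members differed from that line in both directions. Chromosome 22 ranked the fourth lowest of 24 in this comparison. The iPS value lay below all ES lines in 213 members (37.1%), against 31.5% of all genes tested and 33.2% on other chromosomes. At 5746449 counts the iPS library was the shallowest, and no replicate of it exists here.

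A single member was called in iPS cells, beside 0.109% of all genes tested and 0.198% of genes on other chromosomes. NFIX, a transcription factor of the nuclear factor I family that is active in muscle, brain and connective tissue (12238050 to 12314921), read 268 CPM in iPS cells, 154 in fibroblasts and 11.6, 9.34 and 19.4 in No40, DSY127 and No20. It was higher in iPS cells by 4.31 ± 0.44 (edgeR, adjusted p of 0.0367) and in fibroblasts by 3.52 ± 0.43 (adjusted p of 0.00424). In iPS cells the adjusted p was 0.0606 with limma voom and 0.320 without No40. The summed mesenchymal markers of this library, 10757 CPM, stood above the ES range of 1412 to 2542 CPM beside this result, and their part in it was not tested. At an unadjusted p under 0.05, 7 members were higher and 19 lower, beside 5.56% and 3.13% of all genes tested.

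Other large differences in iPS cells did not pass. UBE2M read 236 CPM in iPS cells against 63.3, 90.6 and 98.1 in No40, DSY127 and No20, and FOSB read 43.4 against 6.58, 1.36 and 6.72 CPM, with adjusted p of 0.232 and 0.249 in edgeR's test. NLRP9 and NLRP7, at 458 and 730 CPM, were near DSY127, whose values were 318 and 769. On the lower side, DNMT1 read 10.99 CPM against 28.7 to 73.0, SIRT2 5.75 against 12.1 to 18.0, CAMSAP3, which caps the minus ends of microtubules, 11.8 against 29.2 to 47.3, and EPOR, the erythropoietin receptor, 7.10 against 12.1 to 35.3. The iPS value lay below every ES line in each of these 4 genes, which were chosen by the size of their fall. DESeq2 called 6 members, 3 in each direction, among them FOSB with an adjusted p of 0.00994 and DNMT1 with 0.0418. The share of all genes that DESeq2 called is not given here. FOSB was under 10 CPM in every ES line, so it met the membership rule through other libraries, with iPS cells among them.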

How the data were processed

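RNA sequencing of 1 fibroblast, 3 ES and 1 iPS library was analysed from read counts per gene that the authors deposited as whole numbers without normalization, once as a joint table and once as a file per library, with identical values. RNA was extracted with a Qiagen kit, per the labels' protocols. The submitters' processing notes list the tools featureCounts 1.5.2, STAR 2.5.3a and Trim Galore 0.4.0, without saying what each did. How reads were assigned by strand, to several places or to overlapping genes, and on which build, was not given in the sources used here. Multi-part gene models were placed by their first chromosome entry, and spans run from the lowest start to the highest end. Symbols came from a gene name table matched on identifier.

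Counts were fitted in R 4.3.3 with edgeR 4.0.16 (filterByExpr, which kept 17462 genes with all 574 members among them, TMM scaling, estimateDisp, glmQLFit and glmQLFTest) on all 5 libraries. Fibroblast, ES and iPS were the levels of the first fit, with 2 residual degrees of freedom. Each ES line was then set against the other ES lines with 1. Benjamini-Hochberg adjustment ran over every gene in the fit, and an adjusted p under 0.05 was called. The common biological coefficient of variation was 0.458 in the first fit, 0.389 for No20 and 0.464 for DSY127. Medians of log2 CPM differences (prior count 2) are descriptions without a test, since genes are not replicates. DESeq2 1.42.0, limma 3.58.1 (voom), other scalings, filters, member thresholds and leaving out libraries were alternatives. Fits were tested on simulated counts.

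Named genes were, per comparison, the 5 members with a symbol and the largest fold change in each direction, called ones first, then the 10 of highest CPM, the first, last, longest and shortest, and up to 3 per list. Other list members that passed, the identifiers called in No20 and ENSCJAG00000013647 were named after their values were seen. The members, lists and tests were chosen with earlier results of these data known. Of the lists' members only those on chromosome 22 under the rule are counted. Some genes that the rule gives are not reported here. No sequences are given, since none of the files used here holds them.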

Additional observations from a re-analysis of the deposited data

How the results depend on the processing

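No paired analysis was possible because the fibroblast and iPS groups have 1 library each, so that the groups share fewer than 2 replicate numbers, and these were given in accession order. The called members in fibroblasts numbered 109, with a range of 66 to 142 on leaving out each ES line and 52 among the 285 members that overlap no other gene, a smaller set. Called members in iPS cells numbered 1, or 6 with DESeq2, 0 with limma voom and 0 to 3 on leaving out each ES line. In No20 the 4 called members became 11 without a low-count filter and with DESeq2, 2 with a strict filter (1 CPM in every ES line) or among members that overlap no gene, and 1 with limma voom. In DSY127 none became 3 without the filter. The shares of all genes called under these alternatives are not given here, so the counts cannot be set against a background. The fibroblast median of -0.08 was -0.33 with upper-quartile factors and -0.46 by total counts alone, where the median of all genes tested was also -0.46. It ranged from -0.06 to 0.05 on leaving out each ES line, with the positive value without DSY127, and was 0.02 among members without overlap, so its sign is not fixed. The split by upper-quartile factors was 36 higher and 77 lower. The causes were not tested. The No20 median stayed between -0.37 and -0.10, and the DSY127 median between 0.13 and 0.28, under every alternative run. The iPS median of -0.19 was -0.27 without No20, -0.10 without DSY127 and -0.08 with the strict filter. Of the values of single genes under alternatives, 586 kept direction and call, 24 lost the call, 12 gained it and none reversed. Leaving out a line in the No20 and DSY127 comparisons leaves no residual degrees of freedom, so those are values without a test. The iPS depth, where 3 counts equal 0.507 CPM, limits low members there.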
